A study of Mus musculus with 10 samples.

Results

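The 10 genes described here form the oxygen sensing pathway and one of its best known outputs, the hormone erythropoietin. They were chosen by name, as Epo, Hif1a, Epas1, Arnt, Hif3a, Egln1, Egln2, Egln3, Vhl and Bnip3, and all 10 were found by symbol among the 21792 genes of the files. RNA was taken from the kidney cortex of wild-type (WT) mice 28 days after treatment, in 4 sham mice that received PBS and 6 mice with aristolochic acid nephropathy (AAN) injected once with aristolochic acid (intraperitoneal, 5 mg/kg, in PBS). Aristolochic acid is a plant toxin that injures the proximal tubule and leads to fibrosis. The methods give littermate controls for all animal experiments and, for AAN, males of the C57BL/6 strain that were 8 weeks old. Each mouse has its own library and is named here by its tag, B607, B634, B636 and H249 for sham and A483, B614, B630, B639, B642 and B666 for AAN. Levels are FPKM, that is fragments divided by the length of the gene model in kilobases and by the depth of the library, which allow genes to be compared with each other per length.

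The pathway works through proteins more than through RNA. The hypoxia-inducible factors (HIF) are dimers of an oxygen-sensitive alpha subunit (encoded by Hif1a, Epas1 or Hif3a) and a stable partner (Arnt). When oxygen is present, the prolyl hydroxylases encoded by Egln1, Egln2 and Egln3 mark the alpha subunits, the protein of Vhl binds the marked form, and the proteasome destroys it. When oxygen is low the alpha subunits persist and switch on target genes, among them Egln3 and Bnip3 themselves. In the adult kidney, interstitial cells of the cortex make erythropoietin mainly under the control of the protein of Epas1, whereas the tubule expresses Hif1a. RNA levels therefore give no measure of HIF protein or of its activity.

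HIF dimers bind short elements with the core letters ACGTG or GCGTG. The 250 bases before the annotated start are shown for Egln3 and Bnip3, since both are known HIF targets and they were the members that differed most between the groups in opposite directions. The sequences are from RefSeq on GRCm38.p6, both on the minus strand, Egln3 at chr12:54203875-54204124 and Bnip3 at chr7:138909507-138909756, with each match on either strand in capitals.
Egln3: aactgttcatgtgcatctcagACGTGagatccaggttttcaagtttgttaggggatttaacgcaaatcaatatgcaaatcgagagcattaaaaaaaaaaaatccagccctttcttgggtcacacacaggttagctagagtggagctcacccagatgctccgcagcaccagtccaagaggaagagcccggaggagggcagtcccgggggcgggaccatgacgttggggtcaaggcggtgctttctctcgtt
Bnip3: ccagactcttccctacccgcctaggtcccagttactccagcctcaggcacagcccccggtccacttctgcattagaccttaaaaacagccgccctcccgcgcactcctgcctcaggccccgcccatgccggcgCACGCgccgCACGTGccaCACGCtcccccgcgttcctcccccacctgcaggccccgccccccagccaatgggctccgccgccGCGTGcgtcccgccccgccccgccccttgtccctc
The Egln3 window held 1 match, ACGTG, which began 229 bases before the start. The Bnip3 window held 5 matches, 3 of them GCGTG, and the other pair is a single palindrome (CACGTG) counted on each strand. RefSeq windows were found for 9 members, and 9 of their 10 windows (Egln2 has a pair) held at least 1 match, against 52.0% of the 15352 windows of genes tested and 38.6% of all 32851 windows. The Vhl window held none. A match describes the letters alone and was not tested as a binding site.

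Depth was 15.8 to 17.5 M fragments a library for the sham group and 13.4 to 16.5 M for the AAN group, and sham mice had 16690 to 17639 genes above 0, AAN mice 19158 to 19636. Between 39.5% and 61.4% of the summed FPKM of a sham mouse came from the 13 mitochondrial genes, and between 21.4% and 55.0% in AAN. Over the 17129 genes tested the log2 fold change had a median of 0.75, so most genes read higher in AAN, and each member is given both as measured and relative to that median. With rescaling by the median of ratios between mice the same median was 0.065, and with quantile normalization it was -0.098. Sham mouse B607 had the smallest mitochondrial share of its group. The proximal tubule markers (12 genes, such as Slc34a1 and Miox) summed to 3189 to 5508 FPKM in sham mice and 786 to 2923 FPKM in AAN mice, and none of those defining genes was at 0. The highest AAN value belonged to mouse B614, whose next neighbour was at 1197 FPKM.

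In the deposited values, Egln3 rose to 2.29 times its sham mean and was the only member past both limits used here, an adjusted p of at most 0.05 and at least a 2-fold change. Vhl and Hif1a rose by less than 2-fold, which no longer passed after the median of ratios or quantile normalization (where the sign of Vhl turned). Bnip3 fell, whereas Epas1, Arnt, Egln1 and Egln2 did not pass the test, and Epo and Hif3a were too low to be tested in the fit. Of the 8 members tested, 1 was higher past both limits, against 35.8% of all genes tested, and none was lower, against 3.43%. On the adjusted p alone, 3 members were higher and 1 was lower, against 55.4% and 6.00% of all genes. The median log2 fold change of the 8 members was 0.33, below the 0.75 of all genes. The share of higher calls among all genes past both limits was 91.2%, and it was 64.4% with the median of ratios and 56.1% with quantile normalization. After the median of ratios no member was higher past both limits (19.0% of all genes) and 1, Bnip3, was lower (10.5%), and after quantile normalization none passed both limits in either direction (14.9% and 11.6%).

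**Figure D1:**
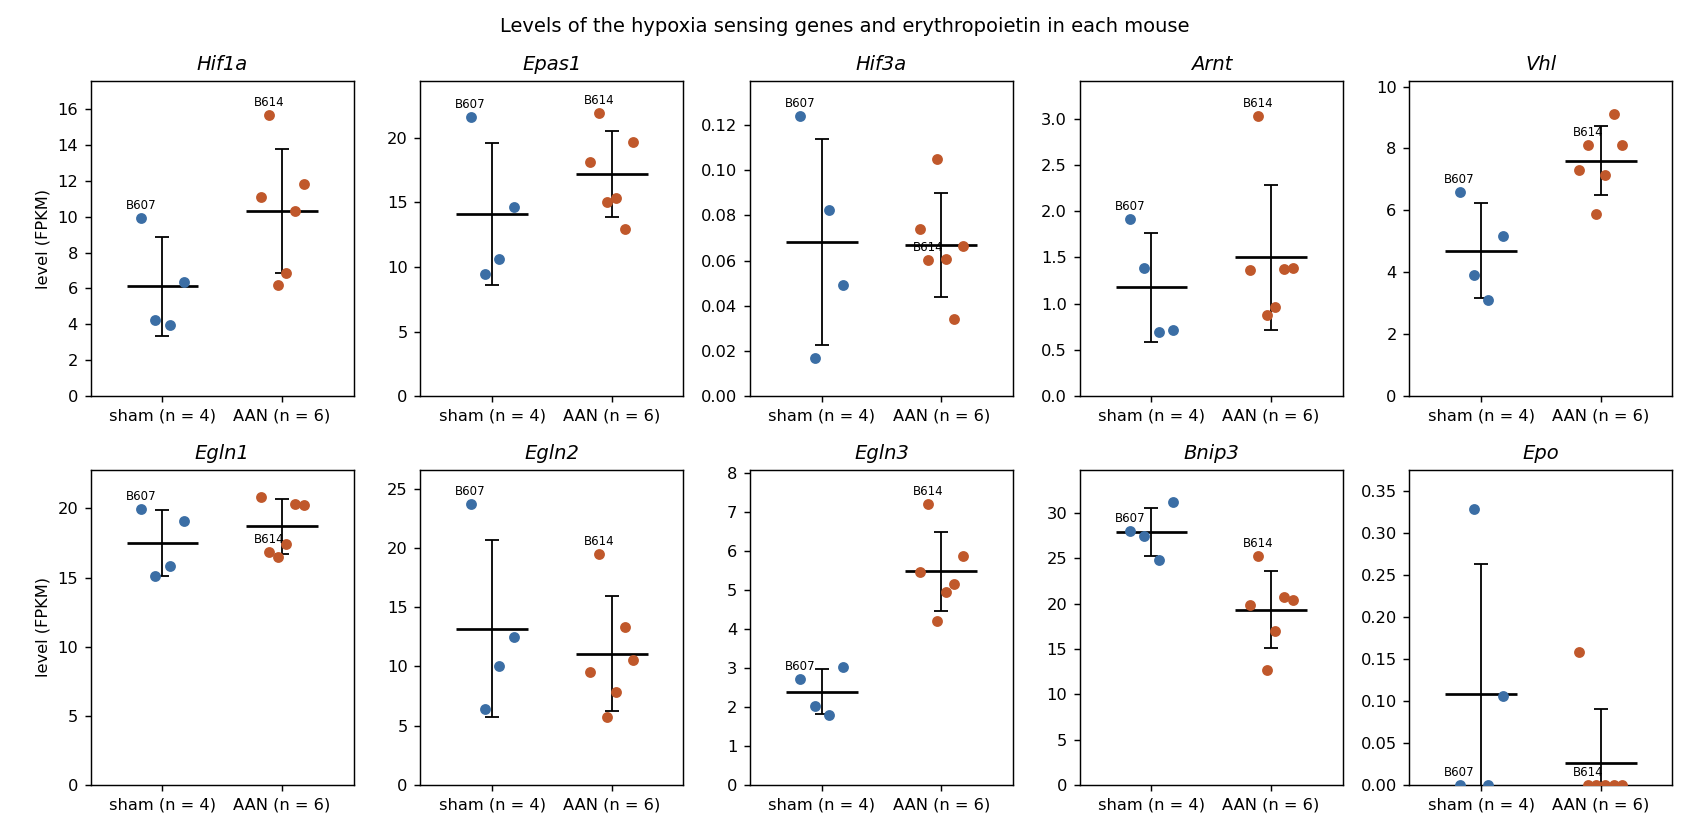
Levels of the 10 genes in FPKM (vertical axes, each from 0) in the 4 sham and 6 AAN mice, as deposited. Each point is 1 mouse, lines are means and bars the SD, with mice B607 and B614 labelled; only Egln3 has all AAN mice above all sham mice, a gap that closes after rescaling by the median of ratios, where 5 of 6 stay above.

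Ordered by their mean level in sham mice, the members ran from Bnip3 (27.9 FPKM) through Egln1 (17.5), Epas1 (14.1), Egln2 (13.2), Hif1a (6.12), Vhl (4.70), Egln3 (2.40) and Arnt (1.18) to Epo (0.109) and Hif3a (0.0681). Most neighbours in this order kept it in 4 of 4 sham mice. The exceptions were Egln1 above Epas1 and Epas1 above Egln2, each in 3 of 4, and Epo above Hif3a, in 2 of 4. In AAN mice Bnip3 and Egln1 could not be ordered, since Bnip3 was higher in 3 of 6 mice, and neither could Egln2 and Hif1a, for the same count. Hif3a stood above Epo in 5 of 6 AAN mice.

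Hif1a encodes the alpha subunit that drives glycolytic genes. Its level was 9.92, 4.23, 3.96 and 6.36 FPKM in sham mice B607, B634, B636 and H249. In the AAN group it ran from 6.17 to 15.6 FPKM with a median of 10.7. Sham mouse B607 lay within the AAN range, and 4 of 6 AAN mice lay above all sham mice. Hif1a rose in the deposited values by a log2 fold change of 0.77 (SE 0.31, limma, adjusted p 0.0476), which is 0.02 above the median gene and at percentile 51.3 of all genes, and no rise was left after the median of ratios (0.018, adjusted p 0.959) or quantile normalization (0.089, adjusted p 0.796). The call was lost when any of 7 mice was left out (sham B634, B636 or H249, AAN A483, B614, B642 or B666), with adjusted p-values up to 0.146, and without sham mouse B607 Hif1a passed both limits, with a log2 fold change of 1.03. A gene of the files, Gm15283, overlaps Hif1a (12:73901375-73947530, plus strand, GRCm38), and the sharing of fragments between them is not stated.

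Epas1 (17:86753700-86833410, plus strand) encodes HIF-2 alpha, the subunit of endothelial and interstitial cells. Sham mice measured 21.6, 9.45, 10.6 and 14.7 FPKM in the order above, and AAN mice 12.9 to 21.9 FPKM with a median of 16.8. The groups overlapped in all but 1 AAN mouse, B614. The log2 fold change was 0.34 (SE 0.24, adjusted p 0.234), below the median gene by 0.41, and its sign turned after the median of ratios (-0.42, adjusted p 0.0834) and quantile normalization (-0.18, adjusted p 0.467). Without sham mouse B607 it was 0.57 and passed the test (adjusted p 0.0336). The summed endothelial markers, none at 0, were 80.1 to 127 FPKM in sham mice and 141 to 165 FPKM in AAN mice, with 0 of 9 past both limits, and their part in the level of Epas1 was not tested. In whole cortex, fewer cells of a type and less RNA per cell cannot be told apart, here and in what follows.

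Arnt (3:95434388-95497240, plus strand) encodes the shared partner. It was at 1.91, 1.39, 0.692 and 0.714 FPKM in sham mice and at 0.876 to 3.03 FPKM in AAN mice, median 1.37. A single mouse, B614, held the high end, and the other AAN mice reached 1.39 FPKM at most. The log2 fold change of 0.33 (SE 0.36, adjusted p 0.443) had the opposite sign after the median of ratios (-0.38) and quantile normalization (-0.78). Arnt2, a close relative of Arnt, measured 10.03, 3.74, 4.56 and 5.37 FPKM in sham mice and 7.78 to 15.7 FPKM in AAN mice, and 3 of 6 AAN mice lay above all sham mice. Arnt2 rose by 0.88 (SE 0.27, adjusted p 0.0147) on the log2 scale as deposited, and did not pass with quantile normalization (0.20), with the median of ratios (0.12), without sham mouse B634 (0.70, adjusted p 0.0543) and among the mice with B tags alone (0.87, adjusted p 0.0579).

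Hif3a, whose product lacks part of the activating region and can restrain the other subunits, was near the limit of what these libraries detect. Sham mice had 0.124, 0.0171, 0.0823 and 0.0493 FPKM, and AAN mice 0.0344 to 0.105 FPKM, median 0.0636. The ranges overlapped throughout. These values stand for at most 1.82 to 14.5 fragments a mouse, and the means of 0.0681 ± 0.0457 (SD, n = 4) and 0.0668 ± 0.0229 FPKM (SD, n = 6) were not distinguishable (exact two-sided permutation test, p = 0.952). After quantile normalization all 6 AAN mice lay below the sham mice (difference in means -0.14 FPKM, exact permutation p = 0.00476). That scaling raised the sham mean from 0.0681 to 0.181 FPKM and lowered the AAN mean from 0.0668 to 0.0407 FPKM. Sham mouse B634, with at most 1.82 fragments, went from 0.0171 to 0.119 FPKM.

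Egln1 encodes PHD2, the hydroxylase that sets HIF levels in most cells at normal oxygen. Its level was 19.97, 15.1, 15.9 and 19.1 FPKM in sham mice and 16.5 to 20.8 FPKM in AAN mice, median 18.8. The groups overlapped closely, with a spread (SD) of 2.39 FPKM for sham and 1.99 FPKM for AAN. Egln1 (8:124908587-124949324, minus strand) has a single annotated transcript, so its fragments could be counted back, 860 to 1256 in sham and 838 to 1232 in AAN mice, and counting error was at most 3.45%. The log2 fold change of 0.097 (SE 0.15, adjusted p 0.577) was 0.65 below the median gene, at percentile 20.5, and the gene was lower in AAN after the median of ratios (-0.66, adjusted p 0.000289) and quantile normalization (-0.36, adjusted p 0.0104), each with all 6 AAN mice below all sham mice.

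Egln2, the gene of the hydroxylase PHD1, had the largest SD in FPKM of the 10 members in both groups, 7.46 for sham and 4.85 for AAN, though not the largest SD relative to its mean. Sham mice measured 23.7, 6.44, 10.1 and 12.5 FPKM, and AAN mice 5.72 to 19.5 FPKM, median 10.03. The highest mouse of each group was again B607 for sham and B614 for AAN, as for Hif1a, Epas1 and Arnt. The log2 fold change was -0.19 (SE 0.38, adjusted p 0.668). It was 0.14 without B607 and -0.95 (adjusted p 0.0313) after the median of ratios. The gene lies at 7:27158658-27166802 on the minus strand.

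Egln3 encodes PHD3, the hydroxylase that hypoxia itself induces most. Its level was 2.72, 2.04, 1.80 and 3.03 FPKM in sham mice B607, B634, B636 and H249. In AAN mice it was 5.47, 7.23, 4.21, 4.96, 5.17 and 5.87 FPKM in A483, B614, B630, B639, B642 and B666. The lowest AAN mouse lay above the highest sham mouse, as it did in 40.3% of all genes tested. Means were 2.40 ± 0.575 (SD, n = 4) and 5.49 ± 1.02 FPKM (SD, n = 6). Egln3 rose by 1.17 on the log2 scale (SE 0.20, adjusted p 0.000312), which is 0.42 above the median gene and at percentile 69.5. It stayed past the test whichever mouse was left out (1.05 to 1.29) and after the median of ratios (0.43, adjusted p 0.0439), but not after quantile normalization (0.30, adjusted p 0.136). The gene (12:54178981-54203860, minus strand) has 1 transcript, which gave 79 to 133 fragments in sham and 174 to 302 in AAN mice, and counting error of at most 11.3% in any mouse.

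Vhl encodes the protein that recognises hydroxylated HIF alpha. It was at 6.60, 3.93, 3.10 and 5.18 FPKM in sham mice and 5.87 to 9.12 FPKM in AAN mice, median 7.71, with 5 of 6 AAN mice above all sham mice and only B630 within their range. Vhl rose by 0.73 (SE 0.21, adjusted p 0.0107) in the deposited values, within 0.02 of the median gene, and stood at -0.025 (adjusted p 0.917) after the median of ratios and -0.018 (adjusted p 0.932) after quantile normalization. Leaving out each mouse gave 0.55 to 0.90, with adjusted p-values up to 0.0421. Vhl spans 6:113623959-113631633 on the plus strand.

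**Figure D2:**
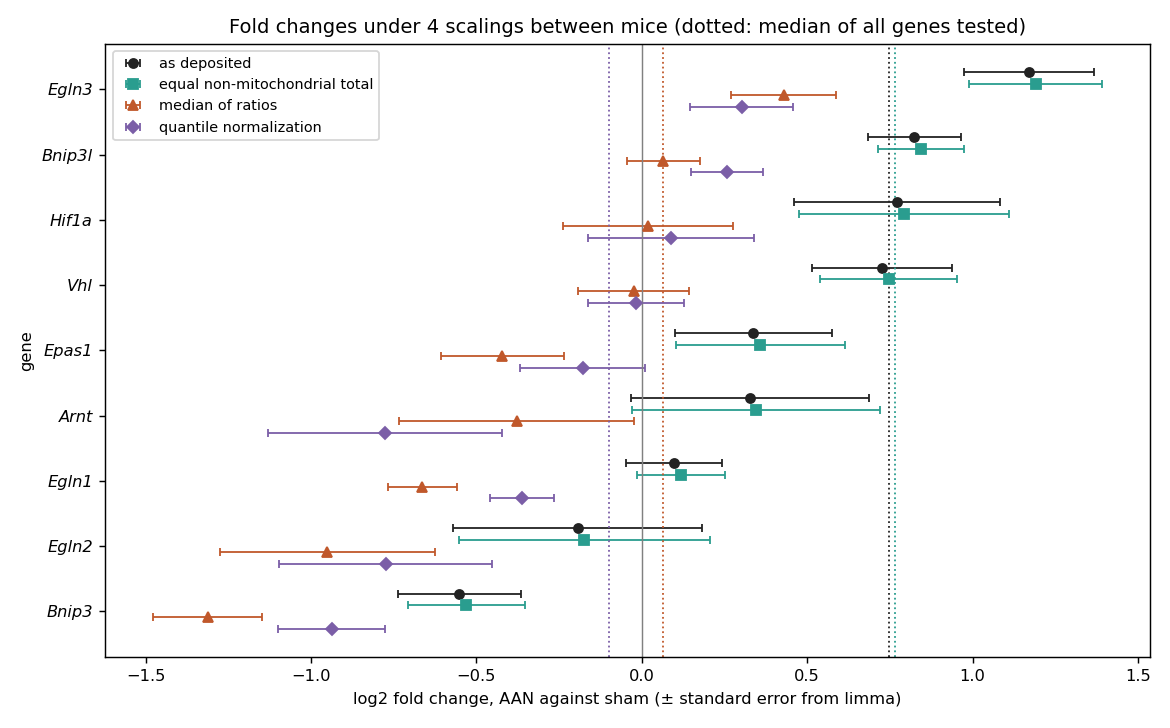
Log2 fold changes of AAN against sham (horizontal axis) with limma's standard error as bars, for the 8 members tested and Bnip3l, under 4 scalings between mice. Dotted lines are the medians of all genes tested, 0.75 as deposited and 0.065 after the median of ratios; Bnip3 is below 0 and Egln3 above 0 under each scaling, and Epas1, Arnt, Egln1 and Vhl change sign.

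Genes of the same mouse share its scaling factor, so the difference of a pair on the log2 scale hardly depends on it where both levels are well above the pseudocount. That does not hold for Hif3a (0.0171 to 0.124 FPKM), whose levels lie around the pseudocount of 0.1 FPKM. For 6 pairs the groups were compared over all 210 splits of the mice (exact permutation, two-sided, smallest p 0.00476), with adjustment over the 6. Egln3 relative to Egln1 was -2.83, -2.83, -3.07 and -2.62 in the sham mice, and -1.96 to -1.21 in the AAN mice, median -1.85. No AAN mouse overlapped the sham mice. The shift was 1.07 (SE 0.15, exact p 0.00476, adjusted p 0.0143), higher in 6 of 6 AAN mice. With B tags alone, which leave 56 splits, it was 1.18 and did not pass the threshold (adjusted p 0.0536). That is the smallest adjusted p that 56 splits allow when only this pair and that of Bnip3 reach the smallest exact p. Not passing there therefore cannot show whether the shift holds less well among these mice.

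Of the other 5, only that of Bnip3, given with that gene, passed the test. Hif1a relative to Epas1 was -1.40 to -1.11 for sham and -1.27 to -0.32 for AAN, where 4 of 6 lay above all sham mice. That shift of 0.43 (SE 0.17) had an exact p of 0.0857 and an adjusted p of 0.171. Egln2 against Egln1 (-0.29, SE 0.39, exact p 0.476), Hif3a against Arnt (-0.31, SE 0.45, exact p 0.514) and Epas1 against Arnt (0.011, SE 0.37, exact p 0.971) were within the spread between mice.

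Bnip3 encodes a mitochondrial outer membrane protein that recruits the autophagy machinery to mitochondria, and its transcription is driven by HIF. Its level was 28.0, 27.5, 24.8 and 31.3 FPKM in sham mice. In AAN mice A483, B614, B630, B639, B642 and B666 it was 19.9, 25.3, 12.7, 17.0, 20.8 and 20.4 FPKM. All AAN mice but B614 lay below all sham mice, and B614 lay above only B636. Means were 27.9 ± 2.65 (SD, n = 4) and 19.4 ± 4.22 FPKM (SD, n = 6). Bnip3 (7:138890836-138909519, minus strand) fell by 0.55 on the log2 scale (SE 0.19, adjusted p 0.0229), or -1.30 relative to the median gene, at percentile 7.44. It was lower under all 20 alternatives, down to -1.31 after the median of ratios, where all 6 AAN mice lay below all sham mice. The call was lost without sham mouse H249 (-0.50, adjusted p 0.0674) and among the B tags alone (-0.51, adjusted p 0.0951).

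Bnip3l, the paralog of Bnip3 and a second HIF-driven mitophagy receptor, read higher in the deposited values, by about as much as the median gene. It was at 10.3, 8.29, 8.27 and 9.54 FPKM in sham mice and 14.1 to 18.3 FPKM in AAN mice, median 16.7. The AAN mice all lay above the sham mice, as in 40.3% of all genes tested. Bnip3l rose by 0.82 in the deposited values (SE 0.14, adjusted p 0.000366), which is 0.08 above the median gene and at percentile 53.9. The rise did not pass the test after the median of ratios (0.065) or quantile normalization (0.26). Within each mouse, Bnip3 exceeded Bnip3l by 1.44, 1.72, 1.57 and 1.70 on the log2 scale in sham mice and by -0.15 to 0.84 in AAN mice, median 0.20. The highest AAN mouse was B614 and still lay below all sham mice. This shift of -1.38 (SE 0.15, exact p 0.00476, adjusted p 0.0143) was seen in 6 of 6 AAN mice, and was -1.32 with B tags alone, where it did not pass (adjusted p 0.0536). That adjusted p was set by the number of splits, as for Egln3 relative to Egln1. The proximal tubule markers moved in the same direction as Bnip3, with 8 of 12 lower past both limits and none higher. The share of the 13 mitochondrial genes was also lower at the median in AAN mice (33.6% against 50.1%). The part of either in the level of Bnip3 was not tested.

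**Figure D3:**
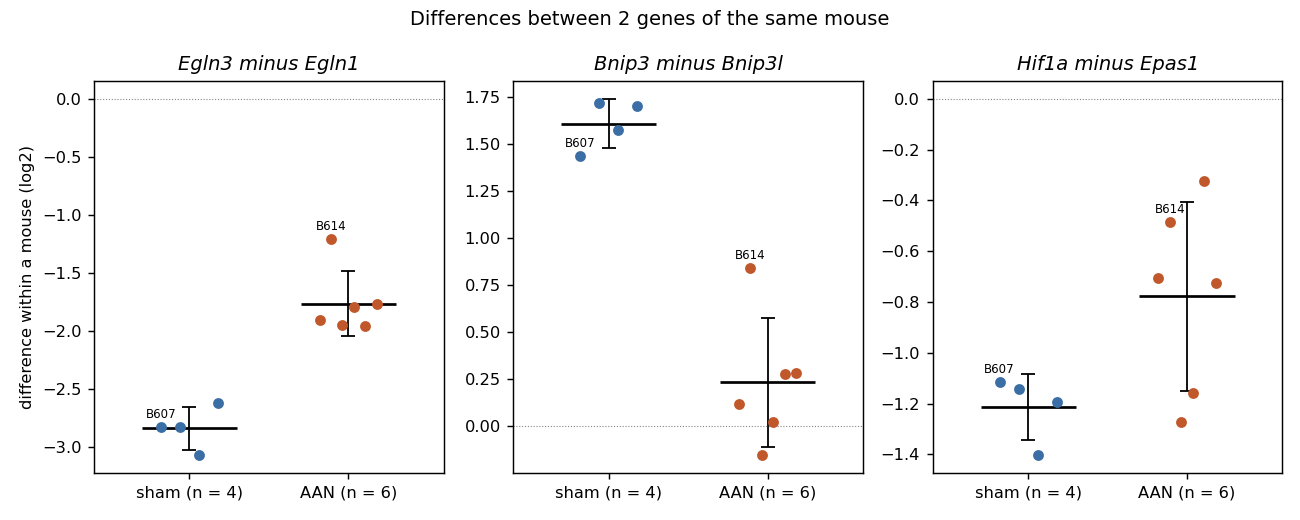
Differences between 2 genes of the same mouse on the log2 scale (vertical axes) in 4 sham and 6 AAN mice, with the mean and SD. Egln3 relative to Egln1 is higher and Bnip3 relative to Bnip3l is lower in every AAN mouse than in any sham mouse, and Hif1a relative to Epas1 overlaps.

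Of 13 mitophagy genes tested, Bnip3l among them, none passed both limits as deposited, against 35.8% of all genes higher and 3.43% lower. The median log2 fold change was 0.023 against 0.75 for all genes. On the adjusted p alone 4 were higher (Bnip3l, the autophagy receptor Optn, the autophagy kinase Ulk1 and the mitochondrial receptor Fundc1) and 2 were lower, against 55.4% and 6.00% of all genes. The lower pair was Pink1, the kinase that marks damaged mitochondria (56.2 ± 9.73 to 34.0 ± 6.28 FPKM, log2 fold change -0.73, adjusted p 0.00312), and Map1lc3a, a protein of the autophagosome membrane (26.5 ± 0.797 to 18.1 ± 2.50 FPKM, -0.56, adjusted p 0.00531). For both, all 6 AAN mice lay below the lowest sham mouse, as they did for 3.25% of all genes, and both stayed lower and past the test under all 20 alternatives. Optn, Ulk1, Fundc1, Pink1 and Map1lc3a were named after their values were seen. After the median of ratios 4 of the 13 were lower past both limits and none was higher, against 10.5% and 19.0% of all genes.

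Epo itself was detected in 3 of 10 mice. It was listed at 0 in sham mice B607 and B636 and at 0.329 and 0.105 FPKM in B634 and H249, and in AAN mice it was listed at 0 in all but A483, at 0.158 FPKM. The means, 0.109 ± 0.155 (SD, n = 4) and 0.0264 ± 0.0646 FPKM (SD, n = 6), were not distinguishable (exact two-sided permutation test, p = 0.4). The values stand for at most 4.45 fragments in any mouse and 8.17 over all 10, and a value of 0 allows up to 3 fragments, or 0.201 to 0.262 FPKM depending on the library. A difference in Epo within these limits was therefore not detectable at this depth. The annotated Epo gene (5:137483020-137533242, minus strand) has 3 transcripts and spans 5 other genes of the files, among them Pop7, Gigyf1 and Gnb2, and the sharing of fragments with them is not stated. Markers of fibroblasts and pericytes, the lineage of the erythropoietin producing cells, summed to 54.2 to 69.4 FPKM in sham mice and 170 to 489 FPKM in AAN mice. Of these, 9 of 10 were higher past both limits, against 35.8% of all genes, and Lum was at 0 in sham mouse B607. The marker that did not pass was Nt5e (means 7.13 and 7.06 FPKM, log2 fold change 0.12, limma, adjusted p 0.749). The sum does not measure the erythropoietin producing cells alone.

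Epor, the receptor of erythropoietin, was low but detected in every mouse, at 0.531, 0.897, 0.996 and 0.962 FPKM in the sham group and 1.29 to 2.51 FPKM in the AAN group, median 1.999. The AAN mice all lay above the sham mice, as in 40.3% of all genes tested. Epor rose by 1.12 (SE 0.24, adjusted p 0.00172) as deposited, which is 0.37 above the median gene and at percentile 67.5. It did not pass the test after the median of ratios (0.41, adjusted p 0.225) and stood at -0.033 after quantile normalization. The red blood cell markers ran from 12.98 to 43.2 FPKM for sham and from 15.1 to 43.1 FPKM in AAN mice when summed, with 1 of 6 tested lower past both limits. That gene was Slc4a1 (log2 fold change -1.20), which is also in the list of distal tubule and collecting duct markers. It made up 12.9 of the 16.6 FPKM of sham mouse B607, so the sum does not measure blood in the tissue alone.

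Of the 15 genes of erythropoietin production and signalling, 9 were higher and 1 was lower past both limits (60.0% and 6.67%, against 35.8% and 3.43% of all genes). The median log2 fold change of the list was 1.07, against 0.75 for all genes. Socs3, an inhibitor of cytokine receptors, rose from 0.459 ± 0.163 to 20.6 ± 6.31 FPKM (log2 fold change 5.17, SE 0.30, adjusted p 1.79e-07). Csf2rb, a receptor chain shared by cytokines of blood cells, rose from 0.236 ± 0.141 to 10.2 ± 2.49 FPKM (5.00, SE 0.29), and Socs1, a relative of Socs3, from 0.467 ± 0.328 to 6.60 ± 2.21 FPKM (3.76, SE 0.46). These genes serve many cytokines other than erythropoietin, and all 3 rose under each of the 20 alternatives. The leukocyte markers summed to 8.87 to 16.3 FPKM for sham and 175 to 535 FPKM for AAN, and the macrophage markers to 38.3 to 61.6 and 630 to 2167 FPKM, each with 8 of 8 higher past both limits and none at 0. Their part in the levels of Socs3, Csf2rb and Socs1 was not tested.

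Hnf4a, a factor that binds the Epo enhancer and a main regulator of the proximal tubule, was the gene of this list that fell. It was at 134, 71.5, 79.3 and 83.4 FPKM in sham mice and at 27.4 to 69.8 FPKM in AAN mice, median 39.5. No mouse overlapped. The log2 fold change was -1.15 (SE 0.27, adjusted p 0.00318), and -0.96 without B607, which is past the test but short of a 2-fold change. Hnf4a is also 1 of the 12 proximal tubule markers given above. After the median of ratios 6 of the 15 genes of the list were higher and 1 lower past both limits. The shares of all genes were 19.0% higher and 10.5% lower. After quantile normalization 5 of the list were higher and 1 lower, against 14.9% and 11.6% of all genes. The list was chosen with earlier results of these data known, so its counts are not independent of those results.

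The partners of the pathway (18 genes: cofactors, the ubiquitin ligase around the Vhl protein and regulators of the hydroxylases) held 2 genes higher past both limits and none lower, against 35.8% and 3.43% of all genes. On the adjusted p alone 8 were higher, against 55.4% of all genes. The median log2 fold change of the 18 partners was 0.54, against 0.75 for all genes. Ube2d1, a ubiquitin-conjugating enzyme, rose from 3.30 ± 0.751 to 8.58 ± 1.72 FPKM (1.35, SE 0.21, adjusted p 0.000159) without overlap and past the test under all alternatives. Cited4, a competitor of HIF for its coactivators and named after its values were seen, measured 1.43 ± 0.198 and 3.80 ± 1.58 FPKM (1.24, adjusted p 0.00529), and did not pass after the median of ratios (0.51) or quantile normalization (0.23). Hif1an, the asparagine hydroxylase FIH, was at 7.67, 2.66, 2.99 and 4.90 FPKM in sham mice and 3.85 to 8.92 FPKM in AAN mice, median 6.44. Its log2 fold change of 0.52 (SE 0.31, adjusted p 0.166) passed only without B607 (0.80, adjusted p 0.0266) and turned to -0.23 after the median of ratios and -0.25 after quantile normalization. Without B607, 7 of the 18 partners were higher past both limits, as were 6684 of the 17217 genes tested then.

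Of 53 known HIF target genes tested, 16 were higher and 1 was lower past both limits (30.2% and 1.89%, against 35.8% and 3.43% of all genes), and their median log2 fold change was 0.35. After the median of ratios 11 were higher and 9 lower (20.8% and 17.0%, against 19.0% and 10.5% of all genes). After quantile normalization the counts were 7 and 3 (13.2% and 5.66%, against 14.9% and 11.6%). Among the 19 genes of glucose use 6 were higher past both limits (31.6%, against 35.8% of all genes), with a median of 0.45. Pfkp, the platelet type phosphofructokinase, rose from 2.22 ± 1.12 to 7.59 ± 2.27 FPKM (1.82, SE 0.34, adjusted p 0.000707). The other glucose use genes higher past both limits had AAN means under 5 FPKM. They were Hk2 (4.47), Slc16a3 (3.01), Pfkfb4 (1.81), Pfkfb3 (1.65) and Aldoc (1.15), named after their values were seen. The sham means of Hk2 (0.0527 FPKM) and Slc16a3 (0.0673 FPKM) lay under the pseudocount of 0.1 FPKM. The 13 that did not pass both limits included Ldha, the lactate dehydrogenase subunit (109 ± 46.7 and 102 ± 34.5 FPKM, -0.078), and Pgk1, phosphoglycerate kinase (135 ± 58.3 and 92.4 ± 42.0 FPKM, -0.57, adjusted p 0.210), both named after their values were seen. Others of the 13 rose, Slc2a1 by 0.88 and Pkm by 0.90. On the adjusted p alone 8 of the 19 were higher and 0 lower, against 55.4% and 6.00% of all genes.

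Among the 34 other targets, 10 were higher and 1 was lower past both limits (29.4% and 2.94%, against 35.8% and 3.43% of all genes). Lox, which crosslinks collagen, went from 0.211 ± 0.141 to 5.42 ± 1.67 FPKM (log2 fold change 4.18, SE 0.31, adjusted p 5.86e-07), and Edn1, the vasoconstrictor endothelin, from 0.891 ± 0.147 to 8.05 ± 3.48 FPKM (2.94, SE 0.31). Both rose under each alternative, and the fitted value of Lox depends on the pseudocount of 0.1 FPKM, since its sham level is near it (2.37 to 4.73 over the alternatives). These genes are also expressed by fibroblasts, endothelium and injured tubule, and injured tubule markers summed to 200 to 310 FPKM in sham mice and 1539 to 3940 FPKM in AAN mice, with 8 of 8 higher and Havcr1 at 0 in sham mouse B634. The part of these cells in the levels of the targets was not tested.

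Vegfa, the classical HIF target of the tubule and podocyte, was at 12.3, 14.6, 19.2 and 16.1 FPKM in sham mice and 9.0 to 14.9 FPKM in AAN mice, median 12.4. Of the 6 AAN mice, 3 lay below all sham mice. Its log2 fold change of -0.34 (SE 0.18, adjusted p 0.122) did not pass as deposited and passed after the median of ratios (-1.10, adjusted p 0.00126) and quantile normalization (-0.84, adjusted p 0.0114). The target that fell past both limits was Tfrc, the transferrin receptor (12.5 ± 5.99 to 4.15 ± 1.28 FPKM, -1.48, adjusted p 0.00228, 5 of 6 AAN mice below all sham mice). Ndrg1, a stress response gene long used as a marker of hypoxia, fell by less than 2-fold, from 393 ± 94.1 to 222 ± 37.5 FPKM (-0.82, adjusted p 0.00371, 6 of 6 below). Both were named after their values were seen, and both stayed lower and past the test under each alternative.

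**Figure D4:**
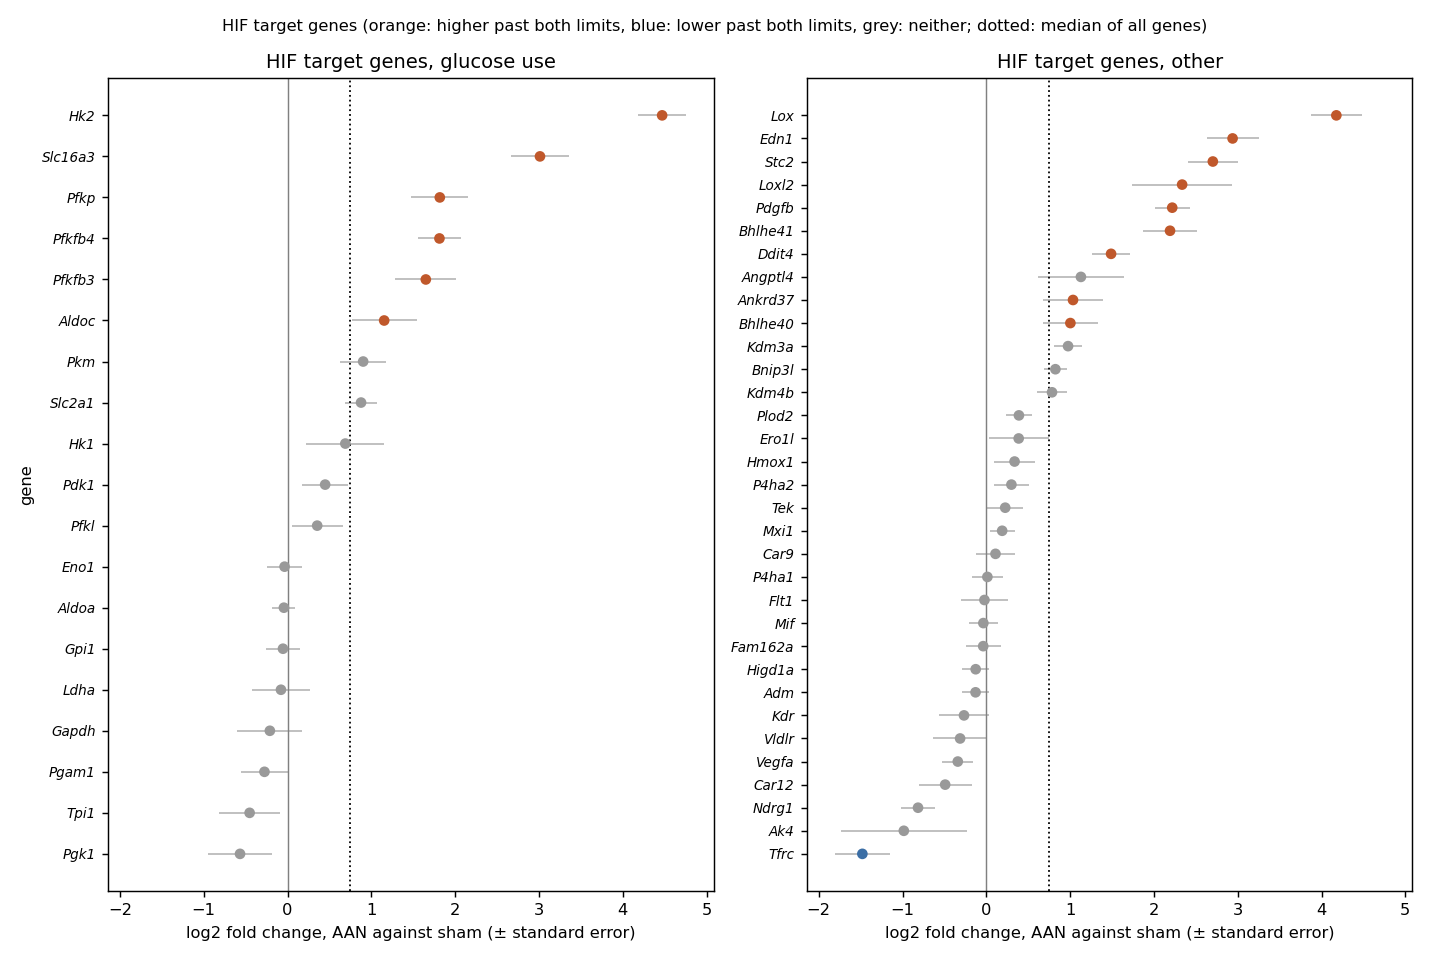
Log2 fold changes of AAN against sham (horizontal axes, as deposited) with limma's standard error as bars for 52 HIF target genes, 19 of glucose use and 33 others. Orange marks 15 genes higher and blue 1 gene lower past both limits, and the dotted line is the median of all genes tested, 0.75; after the median of ratios 11 and 9 of all 53 tested pass.

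Within the groups, the members varied together in part. Deviations of Hif1a from the group means followed those of Egln2 (Pearson r 0.91 over 10 mice) and Egln3 (0.87). Over all 12241 genes compared the median r with Hif1a was 0.40. The genes most like Hif1a were Cep19 (0.996), Ppp3r1 (0.992) and Pcyox1 (0.991).

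For Egln3 the closest were Pigr (0.964), Crot (0.963) and Chic1 (0.962), for Vhl Capza1 (0.966), Pcgf5 (0.965) and Ccnf (0.962), and for Bnip3 Tigd2 (0.969), Tspan3 (0.940) and Timm22 (0.940). Epas1 was closest to Ctbp2 (0.968), Celsr2 (0.968) and Golga4 (0.967), and Arnt to Lrrn1 (0.984), Ap1s3 (0.973) and Cpeb2 (0.956). Egln1 was closest to 1810055G02Rik (0.983), Tmem79 (0.982) and Sdcbp (0.975), and Egln2 to Rgl1 (0.993), Igf1r (0.991) and Tmem170 (0.9904). These are descriptions over 10 libraries that share depth and composition, picked as the highest of many genes.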

How the data were processed

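The data are RNA-seq libraries of whole kidney cortex from 4 sham and 6 AAN mice, with groups from the sample labels. The authors prepared paired-end libraries, removed rRNA, adapter, short and low-quality reads, aligned the rest to GRCm38 (mm10) with Hisat2 and computed FPKM per known gene with Stringtie, and these FPKM are the deposited values, with no further scaling named. The annotation release and the use of strand are not given in the sources used here. The authors tested with edgeR, which needs counts, so limma was used here in its place, with the same limits.

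Symbols and positions are from GENCODE M21 on GRCm38, which held 21650 of the 21792 genes. The 17129 genes whose mean over the 10 mice reached 0.1 FPKM were compared on log2(FPKM + 0.1) with limma 3.58.1 in R 4.3.3 (lmFit, eBayes with trend and robust, two-sided) and Benjamini-Hochberg adjustment over all of them, and called where the adjusted p was 0.05 or less and AAN was 2-fold or more above, or 0.5 or less of, sham. Fold changes are on this scale and understate changes of low genes. For single values all 210 splits of the mice were permuted (exact, two-sided). Depth was recovered from genes with 1 transcript under 0.3 FPKM, whose values were whole fragments in 94.7% to 96.9% of cases within a tolerance of 0.05. Genes with several transcripts were whole in 9.72% to 11.6%, so counts were recovered for single-transcript genes alone and other fragment numbers are upper limits from the exonic length. These limits cover counting error only. Nothing says how the mice relate beyond being littermate controls, and p-values set the difference between the groups against the spread between these mice.

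The members and the gene lists were chosen with earlier results of these data known. Besides the members and Epor, Hif1an, Arnt2, Bnip3l and Vegfa, the rule named from each list up to 3 genes in each direction with the largest change among those past both limits, without overlap between the groups and with a mean of at least 5 FPKM where higher. For each member with a mean of at least 1 FPKM it named the 3 genes most correlated within the groups. 1 gene that the rule names is not reported here. The alternatives were pseudocounts of 1 and 0.01, a minimum mean of 1 FPKM or none, the median of ratios, quantile normalization, an equal non-mitochondrial total, plain eBayes in limma, no fold limit, each mouse left out and mice with B tags alone. The fit and the exact tests were tested on simulated data. Promoter windows are from RefSeq (GRCm38.p6). Other steps ran in Python 3.11.15 (pandas 2.3.3, numpy 2.4.6, scipy 1.17.1, figures with matplotlib 3.10.9).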

Additional observations from a re-analysis of the deposited data

Results flagged for a closer look

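In 68 groups of values examined, 1 mouse stood far from the others of its group in 8, where chance gives about 3.4. Mouse B614 of the AAN group was such a mouse in 4 of them. The groups of values share mice and scaling, so these counts are a description and not a test against chance. The Arnt level of B614 was 3.03 FPKM against 0.876 to 1.39 in the other AAN mice, and its Egln3 relative to Egln1 was -1.21 on the log2 scale against -1.96 to -1.77. The mean log2 level of its proximal tubule markers was 6.88 against 4.76 to 5.32, and that of its distal tubule and collecting duct markers 5.64 against 3.64 to 4.21. Epo was at 0.158 FPKM in AAN mouse A483 and listed at 0 in the others. Sham mouse B634 had a mean log2 level of leukocyte markers of -0.095, where its group was otherwise at 0.635 to 0.784, and 16690 genes above 0, where the others had 17521 to 17639. The library of AAN mouse B639 held 13.4 M fragments, against 15.5 to 16.5 M.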

How the results depend on the processing

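Egln3 was higher and Bnip3 lower in AAN under each of the 20 alternatives, and the cause of the changes that follow was not tested unless the setting itself gives it. The count of members higher past both limits (1) was 0 with a pseudocount of 1, the median of ratios or quantile normalization, 3 without a fold limit and 1 to 2 with each mouse left out (2 without sham mouse B607), and the count lower (0) was 1 with the median of ratios and 1 without a fold limit. Over all genes, 6126 higher became 2909 (pseudocount 1), 4025 (minimum mean of 1 FPKM, which leaves fewer genes), 3261 (median of ratios), 2546 (quantile) and 9482 (no fold limit), and 588 lower became 1801 (median of ratios), 1992 (quantile) and 1027 (no fold limit). Partners higher (2) were 1 with a pseudocount of 1, 0 with the median of ratios, 0 with quantile normalization, 8 without a fold limit and 2 to 7 with each mouse left out (7 without B607), and partners lower (0) were 1 and 2 under those scalings. HIF targets higher (16) were 7 with quantile normalization, and targets lower (1) were 9 with the median of ratios, 3 with quantile normalization, 2 without a fold limit and 2 among B tags without B614, an alternative added after seeing the data. Hif1a (0.77) lost its call with a pseudocount of 1 (0.68), no filter (0.77, adjusted p 0.0610), the median of ratios (0.018), quantile normalization (0.089), limma without trend or robust (0.77, adjusted p 0.0551), B tags alone (0.79) and B tags without B614 (0.61), and spanned 0.60 to 1.03 with each mouse left out. With the median of ratios and quantile normalization, Epas1 was -0.42 and -0.18, Arnt -0.38 and -0.78, Egln1 -0.66 and -0.36, Vhl -0.025 and -0.018, and Hif1an -0.23 and -0.25. Egln2 was -0.95 with the median of ratios, Egln3 0.30 and Epor -0.033 with quantile normalization, Bnip3 -0.51 with B tags alone and Arnt -0.12 with B tags without B614. With each mouse left out Epas1 spanned 0.17 to 0.57, Egln2 -0.48 to 0.14 (higher without B607), Bnip3 -0.63 to -0.44 (past the threshold except without H249) and Epas1 minus Arnt -0.27 to 0.23. Epas1 minus Arnt was -0.015 with a pseudocount of 0.01. The difference in mean Hif3a was -0.14 FPKM with quantile normalization (exact permutation p 0.00476, all 6 AAN mice below all sham mice), 0.000149 FPKM with an equal non-mitochondrial total and -0.0184 to 0.0172 FPKM with each mouse left out. Quantile normalization raised the sham mean of Hif3a from 0.0681 to 0.181 FPKM. Among B tags alone, with 56 splits, Egln3 minus Egln1 was 1.18 and Bnip3 minus Bnip3l -1.32, and neither passed the threshold (exact permutation, adjusted p 0.0536 each). Both had the smallest exact p that 56 splits allow, so that adjusted p was set by the number of splits. No paired analysis was possible because each mouse carries its own tag and the replicate numbers used here, given in accession order, pair no mice. Depth limits Epo and Hif3a, for which no difference was detected in the deposited values and small ones could not be.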
